A study of Mus musculus with 15 samples.

Results

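Genes that mark cortical GABAergic interneurons or control their formation were followed in the embryonic brain of mice carrying the TBR1-K228E mutation. The list holds 9 genes, chosen by name as markers and transcription factors of these cells, and 8 of them were matched by Ensembl identifier to 1 row each of a table of 19475 genes. These 8 are the enzymes *Gad1* and *Gad2*, the transcription factors *Dlx1*, *Dlx2*, *Dlx5*, and *Lhx6*, and the peptides *Sst* and *Npy*. The ninth, the long noncoding RNA *Dlx6os1* (also called Evf2), matched no row and was not analysed here. All 8 genes had a mean normalized read count well above the minimum of 5 and were among the 16507 genes tested.

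RNA-Seq was performed on the brains of 15 C57BL/6J mouse embryos at E16.5, with 5 embryos that were WT, 5 that carried the mutation on 1 allele (*Tbr1*+/K228E, heterozygous), and 5 that carried it on both (*Tbr1*K228E/K228E, homozygous). Each genotype had 3 females and 2 males. The mutation is a germline knock-in in the first exon of *Tbr1*, and its selection cassette was removed with a protamine-driven Cre, so that every cell of a mutant embryo carries the changed allele. No treatment was given to any group. The tissue is named brain in the sample labels, whole brain in the series title, and forebrain in the study, and the embryos differed in genes of the hindbrain, as described below. Normalized read counts summed to between 30536000.0 and 31769000.0 per embryo.

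GABAergic interneurons of the neocortex are not born in the cortex. They arise in the ganglionic eminences of the ventral telencephalon, where DLX homeodomain factors are needed for their differentiation and for expression of the GAD enzymes, and they then migrate tangentially into the cortical wall. LHX6 acts downstream of NKX2-1 in cells from the medial ganglionic eminence (MGE), which later become somatostatin- or parvalbumin-positive interneurons, whereas cells from the caudal ganglionic eminence (CGE) give rise to vasoactive intestinal peptide- and reelin-positive ones. TBR1 is a T-box transcription factor of postmitotic glutamatergic neurons of the cortex and is not made in these interneurons, so the comparison asks whether the inhibitory lineage differed at the RNA level in brains in which the excitatory lineage carries the mutation.

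*Gad1*, *Gad2*, *Dlx1*, *Dlx2*, and *Lhx6* lie on chromosome 2, the chromosome that also holds *Tbr1*. On GRCm38 with GENCODE M21 gene models, *Gad1* (ENSMUSG00000070880) spans chr2:70553072-70602014 on the forward strand, and *Gad2* spans chr2:22622205-22693874, also on the forward strand. *Dlx1* (chr2:71528113-71533981, forward) and *Dlx2* (chr2:71543408-71546754, reverse) are neighbors that are transcribed toward each other. The *Gad1* and *Dlx1* genes lie 8.75 and 9.73 Mb from *Tbr1*. *Lhx6* (chr2:36081953-36105408, reverse) lies 25.7 Mb from it. *Dlx5* (chr6:6877805-6882085, reverse) and *Npy* (chr6:49822710-49829507, forward) are on chromosome 6, and *Sst* (chr16:23889573-23890958, reverse) is on chromosome 16. The *Dlx1* exons share 335 bases, or 6.21% of their length, with the antisense gene *Dlx1as*, and the library kit does not mark the strand, so reads from both genes cannot be told apart there.

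Upstream sequences are shown for *Dlx2* and *Lhx6*, which moved together between embryos, as described below, and for *Sst*, which moved opposite to both. Pearson's r of *Sst* was -0.64 with each, and -0.33 with *Dlx2* and -0.51 with *Lhx6* without 2 embryos. Whether these sequences have a part in that movement was not tested. RefSeq start sites on GRCm38.p6 gave 11 windows of 250 bases upstream for 8 of the 9 genes, all but *Dlx5*. These start sites differ in part from the GENCODE models, and windows of *Gad1*, *Dlx1*, and *Sst*, among others, overlap the gene spans given above. The 2 windows below, the *Dlx2* window at chr2:71546755-71547004 and the *Lhx6* window of the first start site at chr2:36105409-36105658, are written 5′ to 3′ on the reverse strand with CG dinucleotides in capitals, and the *Sst* stretch at chr16:23890874-23890903, also on the reverse strand, has the cAMP response element TGACGTCA in capitals.
Dlx2: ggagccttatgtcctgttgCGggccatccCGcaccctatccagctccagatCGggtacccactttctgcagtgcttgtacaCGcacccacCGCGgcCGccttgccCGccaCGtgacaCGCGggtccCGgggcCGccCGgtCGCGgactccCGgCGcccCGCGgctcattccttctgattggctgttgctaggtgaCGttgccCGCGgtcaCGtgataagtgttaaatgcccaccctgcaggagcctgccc
Lhx6: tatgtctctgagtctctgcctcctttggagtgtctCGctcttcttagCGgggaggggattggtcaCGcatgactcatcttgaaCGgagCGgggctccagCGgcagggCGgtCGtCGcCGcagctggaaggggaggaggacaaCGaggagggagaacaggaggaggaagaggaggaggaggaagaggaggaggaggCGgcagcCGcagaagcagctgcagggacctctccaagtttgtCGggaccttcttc
Sst: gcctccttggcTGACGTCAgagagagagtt

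The *Dlx2* window held 24 CG dinucleotides, more than in 88.0% of all 32851 windows, and the *Lhx6* window shown, at the first of 3 start sites, held 14. The other *Lhx6* windows held 17 and 7, and the *Sst* window held 8, beside a median of 6 over all windows, so the *Lhx6* windows lay on both sides of that of *Sst*. The cAMP response element of *Sst* lies 48 to 41 bases before the start site, and 1.55% of all windows hold those letters. A homeodomain core, TAATTA, was also searched on both strands and was found in 4.84% of all windows. Among the 8 genes with a window it was present upstream of *Dlx6os1* alone. The letters TATAAA, searched on both strands and held by 12.4% of all windows, were present in windows of *Gad1* and *Dlx6os1*. These matches describe letters in a short window and say nothing about binding.

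*Tbr1* itself was read first because it is the mutated gene. Its normalized read counts in replicates 1 to 5 were 3517, 4122, 4871, 2097, and 3079 in WT embryos. They were 4738, 8543, 6337, 6743, and 4985 in *Tbr1*+/K228E embryos. In *Tbr1*K228E/K228E embryos they were 11530.0, 7148, 16015, 10671, and 11467. Every homozygous embryo was above every WT embryo, and the highest WT value exceeded only the lowest heterozygous one. *Tbr1* was upregulated in *Tbr1*K228E/K228E embryos by 1.69 ± 0.23 on the log2 scale (SE, adjusted p = 0.00437, limma). The value for *Tbr1*+/K228E embryos was 0.85 ± 0.23 and did not pass after adjustment over all genes (adjusted p = 0.999, limma). The level of the transcript does not read the point mutation itself.

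None of the 8 interneuron genes passed the adjusted threshold of 0.05 in any of the 3 genotype comparisons. In *Tbr1*+/K228E against WT embryos, 0% of all tested genes passed in the limma fit, and 0 of the 8 genes reached even an unadjusted p under 0.05, which 295 genes (1.79%) did. In *Tbr1*K228E/K228E against WT embryos, 21 genes (0.127%) passed, and *Npy* was the only one of the 8 genes with an unadjusted p under 0.05, against 3.23% of all genes. Between *Tbr1*K228E/K228E and *Tbr1*+/K228E embryos, 13 genes (0.0788%) passed, and 0 of the 8 genes reached an unadjusted p under 0.05, against 3.3% of all genes. In no comparison were the embryos of the compared genotypes separated without overlap for any of the 8 genes. Such separation was found for 0.26%, 0.594%, and 0.878% of all genes in the 3 comparisons, in the same order. Both mutant genotypes were compared with the same WT embryos, so the comparisons are not independent. In bulk tissue, fewer cells of a type and less RNA per cell cannot be told apart.

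The genes differed in how tightly these data bound a change, as the plot of fold changes shows. For *Gad1* in *Tbr1*K228E/K228E against WT embryos, the 95% interval of the fold change ran from 0.936 to 1.14. For *Dlx2* in the same comparison, it ran from 0.695 to 1.76. A change of the size allowed for *Dlx2* in either direction lies outside the interval of *Gad1*.

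**Figure D1:**
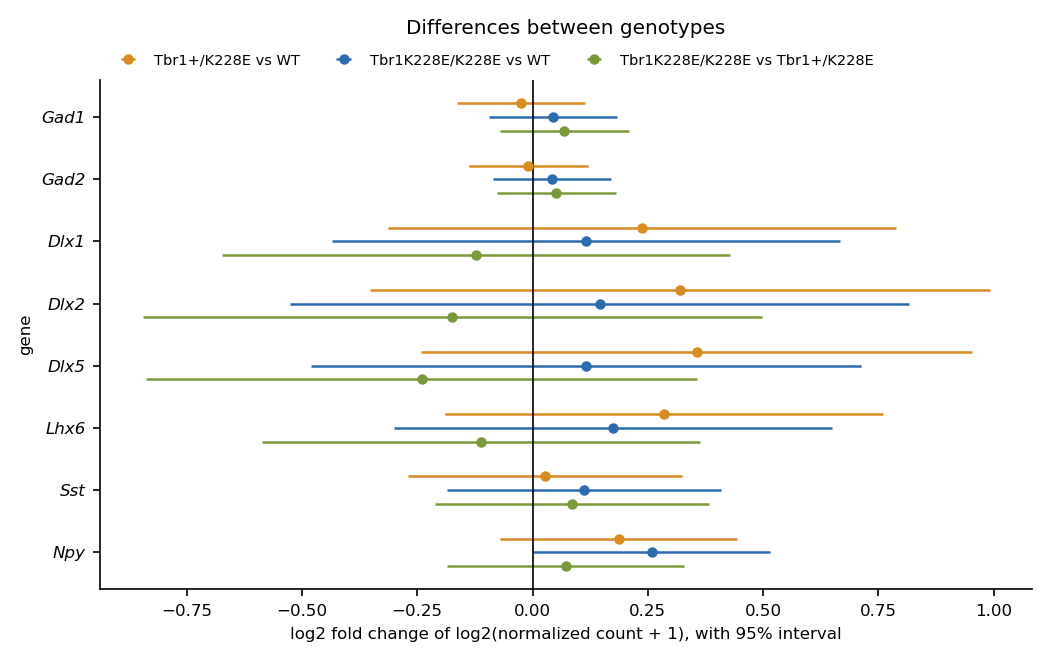
Log2 fold changes (x axis) with 95% intervals for 8 interneuron genes (y axis) in 3 genotype comparisons, from the limma fit on log2(normalized count + 1). All intervals include 0 except that of *Npy* in *Tbr1*K228E/K228E against WT embryos, and the intervals of *Gad1* and *Gad2* are the narrowest.

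*Gad1* encodes GAD67, the enzyme that makes most GABA in neurons, and *Gad2* encodes GAD65, which makes GABA near synaptic vesicles. The normalized read counts of *Gad1* in replicates 1 to 5 were 5129, 4963, 5088, 5847, and 4857 in WT embryos. They were 5316, 5322, 4768, 4911, and 5093 in *Tbr1*+/K228E embryos, and 4783, 5912, 5311, 5851, and 4877 in *Tbr1*K228E/K228E embryos. The 3 ranges overlapped, and the highest of the 15 embryos was 1.24-fold above the lowest. The log2 fold changes against WT were -0.02 ± 0.07 (SE) in *Tbr1*+/K228E and 0.04 ± 0.07 in *Tbr1*K228E/K228E embryos.

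*Gad2* counts were 4249, 4304, 4653, 4162, and 3778 in WT embryos, 4038, 4631, 3997, 4029, and 4303 in *Tbr1*+/K228E embryos, and 4008, 4501, 4444, 4729, and 4089 in *Tbr1*K228E/K228E embryos. The ranges overlapped almost fully, and the highest embryo was 1.25-fold above the lowest. The log2 fold changes against WT were -0.01 ± 0.06 and 0.04 ± 0.06 (SE) in heterozygous and homozygous embryos. Exact permutation tests of 5 against 5 embryos gave two-sided p = 0.722 and 0.587 (heterozygous and homozygous against WT) for *Gad1* and 0.897 and 0.532 for *Gad2*, where the smallest possible p is 0.00794.

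*Dlx1* and *Dlx2* encode partly redundant homeodomain factors of ganglionic eminence progenitors and young interneurons. The normalized read counts of *Dlx1* were 5229.7, 5189, 7525, 3038, and 4299.7 in WT embryos. They were 4513, 8620.5, 5843, 5268, and 5078 in *Tbr1*+/K228E embryos, and 5831, 2931, 8006, 5176, and 5616 in *Tbr1*K228E/K228E embryos. WT replicate 3, heterozygous replicate 2, and homozygous replicate 3 were the highest of their genotypes, WT replicate 4 and homozygous replicate 2 were low, and the ranges overlapped widely. The log2 fold changes against WT were 0.24 ± 0.26 and 0.12 ± 0.26 (SE) in heterozygous and homozygous embryos. With the level of Hox genes, described below, as a covariate, the heterozygous value of *Dlx1* was 0.0226.

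*Dlx2* counts were 1221, 1050.2, 1426, 508, and 612 in WT embryos, 933, 1744, 1244, 860.5, and 990.3 in *Tbr1*+/K228E embryos, and 1295, 504, 1435, 931, and 1081 in *Tbr1*K228E/K228E embryos. The highest embryo of each genotype was the same as for *Dlx1*, and so was the lowest in the WT and homozygous groups. Against WT, the log2 fold changes of *Dlx2* were 0.32 ± 0.32 and 0.15 ± 0.32 (SE). *Dlx5*, a homeodomain gene of the linked *Dlx5*/*Dlx6* pair that is active slightly later in the same lineage, had counts of 557, 526, 729.7, 343, and 349.8 in WT embryos. It had 453, 980.0, 651, 527, and 579.8 in *Tbr1*+/K228E embryos and 629, 278, 833, 550.4, and 478 in *Tbr1*K228E/K228E embryos. The WT and mutant ranges of *Dlx5* overlapped, with log2 fold changes of 0.36 ± 0.28 and 0.12 ± 0.28 (SE). Without WT replicate 4, the homozygous fold changes of *Dlx1*, *Dlx2*, and *Dlx5* turned to -0.05, -0.06, and -0.01, and without *Tbr1*K228E/K228E replicate 3 those of *Dlx1* and *Dlx5* turned to -0.04 and -0.05.

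*Lhx6* encodes the LIM homeodomain factor that directs MGE-derived interneurons to migrate into the cortex and to become somatostatin or parvalbumin cells. Its normalized read counts were 1594, 1679, 2426, 1322, and 1503 in WT embryos. They were 1578, 2947, 1811, 2422, and 1701 in *Tbr1*+/K228E embryos, and 1912, 1123, 2698, 1890.0, and 2156 in *Tbr1*K228E/K228E embryos. The 3 ranges overlapped, and the lowest embryo of all was homozygous. The log2 fold changes of *Lhx6* were 0.29 ± 0.22 and 0.17 ± 0.22 (SE), and the exact permutation test gave a two-sided p of 0.206 for heterozygous embryos. With the Hox level as a covariate, the heterozygous value of *Lhx6* was 0.083.

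Somatostatin and neuropeptide Y are peptides that mark groups of MGE-derived interneurons, and both are also made by neurons outside the cortex. The normalized read counts of *Sst* were 1841, 2109, 1577, 2700.2, and 1526 in WT embryos. They were 2031, 1605, 1844, 2156, and 2139 in *Tbr1*+/K228E embryos, and 2143, 2475, 1837, 2104, and 1815 in *Tbr1*K228E/K228E embryos. All mutant embryos fell within the WT range, whose lowest and highest embryos were also the lowest and highest of all 15. The log2 fold changes were 0.03 ± 0.14 and 0.11 ± 0.14 (SE).

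*Npy* came nearest to a difference. Its counts were 459, 564, 528, 624, and 460.0 in WT embryos, 536, 722, 619.9, 604, and 517 in *Tbr1*+/K228E embryos, and 605, 514, 794, 656, and 595 in *Tbr1*K228E/K228E embryos. In the homozygous group, 2 embryos were above every WT embryo and 4 of 5 were above the WT mean on the log2 scale, yet the ranges overlapped. The log2 fold change was 0.26 ± 0.12 (SE, 95% interval 0.00 to 0.52) in *Tbr1*K228E/K228E and 0.19 ± 0.12 in *Tbr1*+/K228E embryos. The homozygous value had an unadjusted p of 0.0487 in the limma fit, an adjusted p of 1.00, and an exact permutation p of 0.0952 (two-sided). With 3.23% of all genes under the same unadjusted limit, it is not a call.

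**Figure D2:**
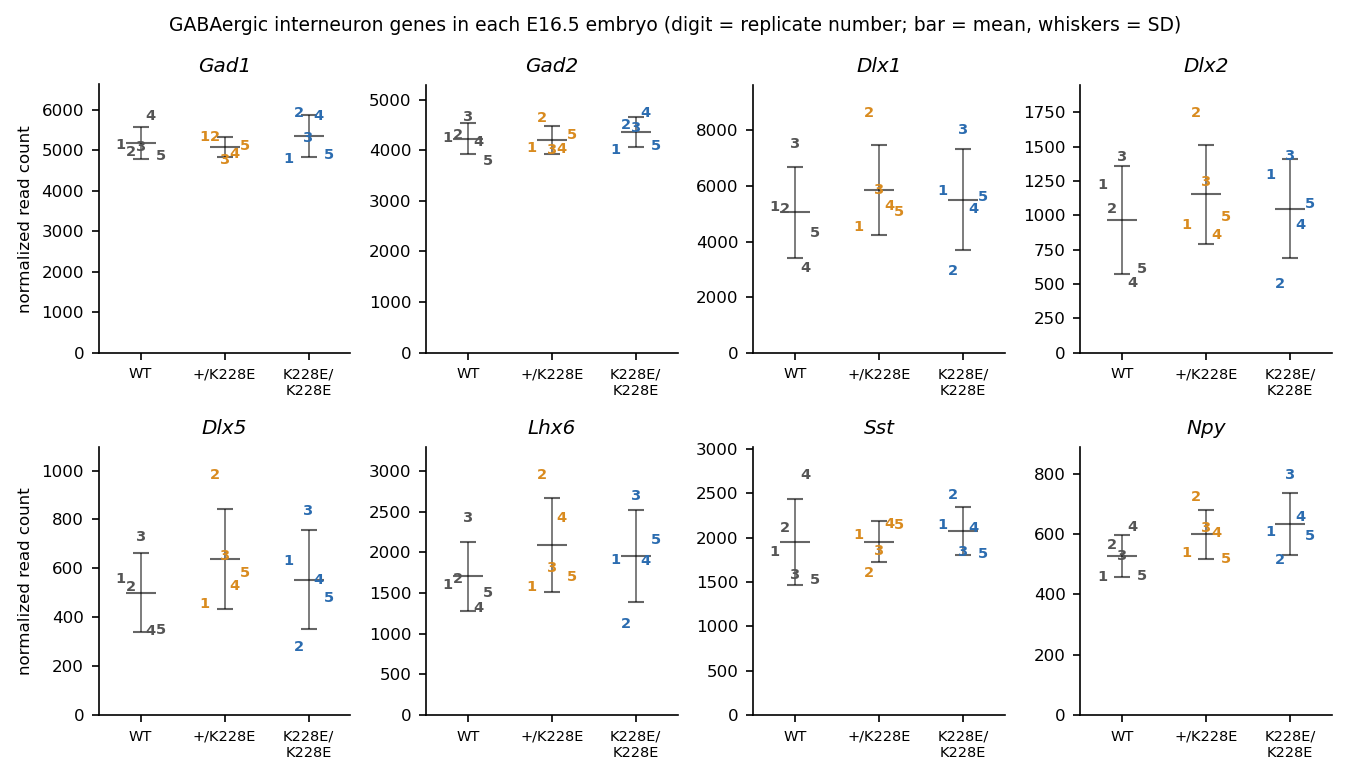
Normalized read counts (y axis, from 0) of 8 interneuron genes by genotype (x axis), with each digit being the replicate number of 1 embryo, the horizontal bar the mean, and the whiskers the SD (n = 5). The genotypes overlap for every gene, and *Dlx1*, *Dlx2*, *Dlx5*, and *Lhx6* spread more widely between embryos than *Gad1* and *Gad2*.

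Between the mutant genotypes, the homozygous group had lower mean values for the 4 transcription factors and higher ones for the enzymes and peptides, all with 95% intervals that included 0. The log2 differences ranged from -0.24 ± 0.28 (SE) for *Dlx5* to 0.08 ± 0.14 for *Sst*. All tested genes together had a median log2 difference close to 0 in each comparison. The median over the 8 interneuron genes was 0.21 in *Tbr1*+/K228E and 0.12 in *Tbr1*K228E/K228E against WT embryos. Of the 8 genes, 6 had a positive value in the heterozygous and 8 in the homozygous embryos, beside 48.8% and 48.7% of all tested genes. The 10 markers of cortical glutamatergic neurons, which are described below and with which the *Dlx* genes and *Lhx6* varied, had positive values for 10 genes in heterozygous and 8 in homozygous embryos, with medians of 0.18 and 0.06. Their part in the values of the 8 genes was not tested. Since the *Dlx* genes and *Lhx6* varied together, these counts are not separate observations.

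Levels of different genes were compared per kilobase of exon in WT embryos. *Sst* had the highest level, with 2705 ± 665 normalized counts per kilobase (SD, n = 5). *Dlx1* and *Npy* followed with 937 ± 304 and 931 ± 125 and did not differ beyond their spread. *Gad2* and *Gad1* had 719.7 ± 53.4 and 678 ± 51.0, again within their spread, and *Lhx6*, *Dlx2*, and *Dlx5* had 355 ± 88.3, 337 ± 138, and 221 ± 71.2. The place of *Gad1* rests on the length used, because its exons sum to 7639 bases over all transcripts and its longest transcript has 3601, which gives 1438 ± 108 per kilobase and puts it above *Dlx1* at 1230 ± 399.

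The main variation in these genes lay between embryos of the same genotype and not between genotypes. The within-genotype SD on the log2 scale was 0.11 for *Gad1* and 0.10 for *Gad2*, below the median of 0.15 over all tested genes. It was 0.46 for *Dlx1*, 0.56 for *Dlx2*, 0.50 for *Dlx5*, and 0.40 for *Lhx6*, which places them at the 84.8, 89.1, 86.6, and 80.9 percentiles of all tested genes. *Sst* and *Npy* lay between, at 0.24 and 0.20. *Dlx2* was 3.46-fold and *Dlx5* 3.52-fold higher in the highest than in the lowest embryo, and *Tbr1*+/K228E replicate 2 was the highest and *Tbr1*K228E/K228E replicate 2 the lowest of all 15 embryos for *Dlx1*, *Dlx2*, *Dlx5*, and *Lhx6* alike.

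The transcription factors varied together across the 15 embryos after the genotype means were removed. Pearson's r between deviations was 0.94 for *Dlx1* with *Dlx2*, 0.96 for *Dlx1* with *Dlx5*, and 0.92 for *Dlx1* with *Lhx6*, and without the 2 embryos farthest from the median of *Dlx1* it was 0.89, 0.95, and 0.89. It was 0.95 for *Dlx2* with *Dlx5*, and lower for *Lhx6* with the other factors, at 0.79 for *Dlx2* with *Lhx6* (0.65 without 2 embryos) and 0.86 for *Dlx5* with *Lhx6* (0.75 without 2 embryos). *Gad1* with *Gad2* gave 0.57 (0.71 without 2 embryos). *Gad1* did not share the movement of the factors, with r = -0.45 for *Dlx1*, and r = 0.04 without 2 embryos. *Sst* was low where *Dlx1* was high, with r = -0.75 (-0.56 without 2 embryos). *Npy* followed *Lhx6* with 0.61. These values describe 15 libraries that share dissection, depth, and scaling within each library, and they carry no test.

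**Figure D3:**
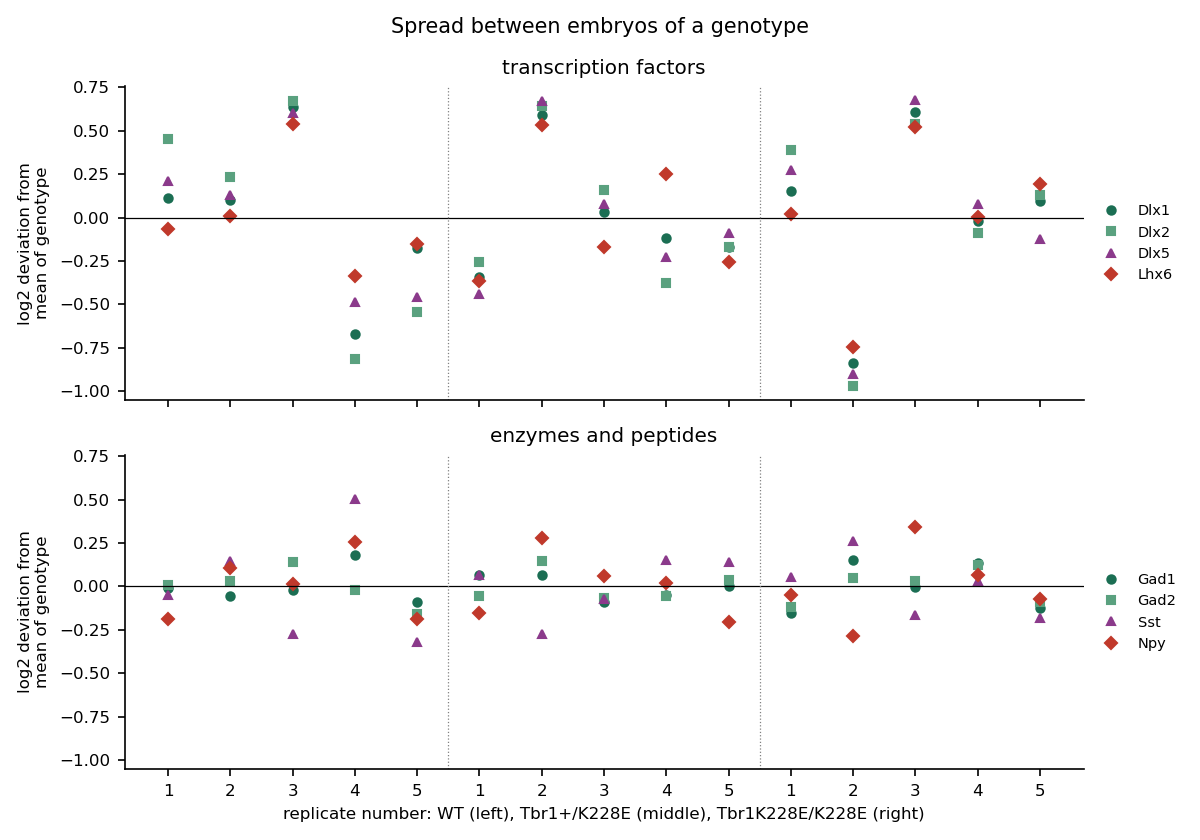
Deviation of each embryo from the mean of its genotype on the log2 scale (y axis) for the transcription factors (top) and for the enzymes and peptides (bottom), by replicate number in the 3 genotypes (x axis). WT replicate 3, *Tbr1*+/K228E replicate 2, and *Tbr1*K228E/K228E replicate 3 are high and WT replicate 4 and *Tbr1*K228E/K228E replicate 2 are low for all 4 transcription factors, whereas *Gad1* and *Gad2* stay near 0.

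Genes of other cells varied with these factors. The 10 listed markers of cortical glutamatergic neurons, all present in the table with *Bcl11b* the most abundant and none at 0, summed to 31806, 36326, 46039, 20861, and 32218 in WT embryos. They summed to 31085, 46794, 36194, 38310.0, and 32735 in *Tbr1*+/K228E embryos, and to 34751, 23806, 46860.0, 33309, and 35142 in *Tbr1*K228E/K228E embryos. The 3 embryos with the most *Dlx1* had the 3 highest sums, and the 2 embryos with the least *Dlx1* had the 2 lowest. For all correlations with summed markers, here and below, sums were taken as log2(sum + 1). Within genotypes, r with this sum was 0.96 for *Dlx1*, 0.86 for *Dlx2*, 0.87 for *Dlx5*, 0.91 for *Lhx6*, -0.49 for *Gad1*, 0.30 for *Gad2*, -0.78 for *Sst*, and 0.40 for *Npy* (n = 15). For *Npy* it was 0.88 without the 2 embryos farthest from the median.

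The opposite order was seen for markers of GABAergic neurons of the midbrain and hindbrain, which use GATA2, GATA3, and TAL factors in place of DLX. All 9 of these markers were in the table, with *Tal1* the most abundant and *Ptf1a* and *Lbx1* at 0 in some embryos. Their sum was 3016, 2718, 1234, 5261, and 2396 in WT embryos, 3309, 253, 1981, 2118, and 2947 in *Tbr1*+/K228E embryos, and 2699, 4343, 658, 2943, and 2155 in *Tbr1*K228E/K228E embryos. The 3 embryos with the most *Dlx1* had the lowest sums and the 2 with the least *Dlx1* had the highest. Within genotypes, r with this sum was -0.84 for *Dlx1*, -0.84 for *Lhx6*, -0.71 for *Dlx2*, -0.79 for *Dlx5*, 0.71 for *Sst*, 0.15 for *Gad1*, -0.43 for *Gad2*, and -0.60 for *Npy* (n = 15). Without 2 embryos it was 0.55 for *Gad1*, -0.14 for *Gad2*, and -0.13 for *Npy*. *Gad1*, *Gad2*, and *Sst* are also expressed by neurons of these regions, and their reads cannot be assigned to the cortex here.

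**Figure D4:**
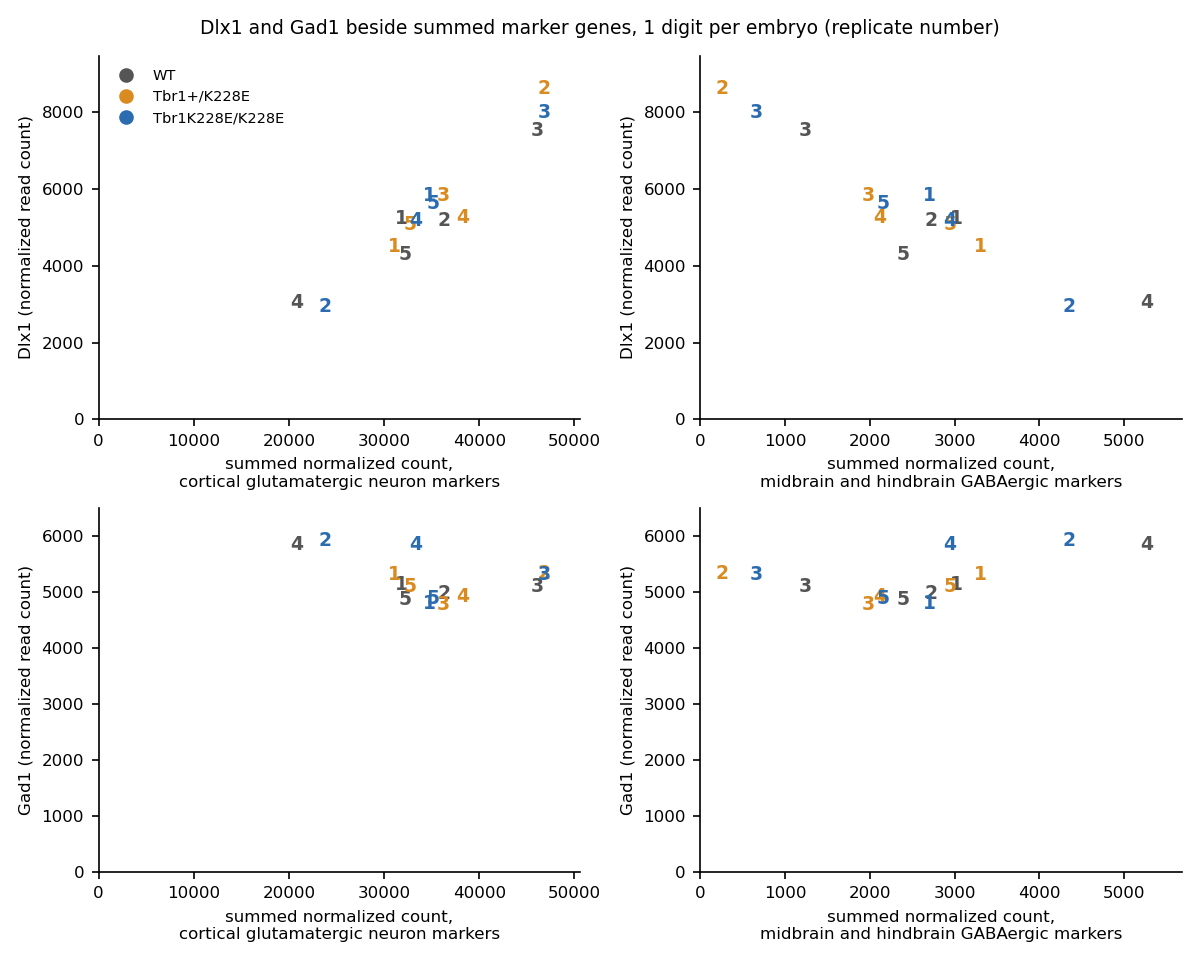
*Dlx1* (top) and *Gad1* (bottom) in normalized read counts (y axes, from 0) against the summed normalized counts of 10 cortical glutamatergic markers (left) and of 9 midbrain and hindbrain GABAergic markers (right), with 1 digit per embryo giving its replicate number and the color its genotype. *Dlx1* goes from 2931 to 8620.5 along both sums in opposite directions, and *Gad1* stays between 4768 and 5912.

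Hox genes, which are active in the hindbrain and spinal cord and silent in the forebrain, gave a separate reading of posterior tissue. The 12 listed Hox genes, led by *Hoxb3* and each at 0 in some embryos, summed to 1141, 391, 13.9, 3249.9, and 4.80 in WT embryos. They summed to 3727, 0, 6.59, 6.98, and 6.65 in *Tbr1*+/K228E embryos and to 575, 251.9, 6.93, 53.7, and 4.08 in *Tbr1*K228E/K228E embryos. On the log2(sum + 1) scale used for r, sums such as 0 and 6.59 lie well apart although both are near the floor. Within genotypes, r with this sum was 0.70 for *Sst* (0.76 without 2 embryos), -0.61 for *Lhx6* (-0.53), and -0.56 for *Dlx1* (-0.42). It was -0.42 for *Dlx5*, -0.33 for *Dlx2*, 0.36 for *Gad1*, -0.16 for *Gad2*, and -0.22 for *Npy* (n = 15). A sum over 100 was found in 3 WT, 1 heterozygous, and 2 homozygous embryos. The other 2 WT, 4 heterozygous, and 3 homozygous embryos were fitted alone, a choice made after the data had been seen. None of the 8 genes passed there either. The *Sst* log2 fold changes were 0.31 ± 0.12 in heterozygous and 0.30 ± 0.12 in homozygous embryos, those of *Npy* were 0.31 ± 0.15 and 0.46 ± 0.16 (SE), and the adjusted p values in limma were 1.00 for both genes and genotypes. In a fit with the Hox level, as log2(sum + 1), as a covariate, the heterozygous log2 fold changes were 0.0226 for *Dlx1* and 0.083 for *Lhx6*. They were 0.24 and 0.29 in the main fit. In the embryos with low Hox sums, the heterozygous values were 0.09 ± 0.28 for *Dlx1* and 0.18 ± 0.26 for *Lhx6* (SE). Those of *Dlx2* and *Dlx5* were 0.32 ± 0.36 and 0.39 ± 0.34 there, beside 0.32 and 0.36 in the main fit. The part of the dissection in the levels of the 8 genes was not tested beyond these values.

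Other cell markers were read in the same way. The 8 meningeal fibroblast markers, led by *Igf2*, summed to 1539 to 43262 in WT, 7275 to 26924 in heterozygous, and 1636 to 31996 in homozygous embryos, and r with this sum was -0.27 for *Dlx1* and -0.29 for *Gad1* (n = 15). For *Gad2* it was -0.50 (-0.16 without 2 embryos) and for *Lhx6* -0.37 (-0.20 without 2 embryos). The 6 erythroid markers, led by *Hbb-bs*, gave r = 0.12 for *Dlx1* and -0.26 for *Gad1*. The 11 markers of striatal projection neurons, which also arise from ganglionic eminences and use the same *Dlx* genes, were led by *Ebf1* and summed to 5423 to 7374 over the WT embryos, with r = 0.28 for *Dlx1* and 0.65 for *Npy*. Without 2 embryos these values were -0.02 and 0.61. The 10 hypothalamic markers, led by *Otp*, summed to 683 to 1189.9 in WT, 933 to 1212 in heterozygous, and 842 to 1235 in homozygous embryos. The 9 mitochondrially encoded genes, led by *mt-Co1*, summed to between 684730.0 and 770940.0 over all embryos.

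The wider GABAergic program was read from lists of related genes, and none of its genes passed the adjusted threshold in any comparison. The lists repeat genes reported above and are not independent of them. *Gad1* and *Gad2* are in the GABA list, *Dlx1*, *Dlx2*, and *Dlx5* in the eminence list, and *Lhx6*, *Sst*, and *Npy* in the MGE list. Of all tested genes, 48.8% were positive in heterozygous and 48.7% in homozygous against WT embryos. Of 6 genes for GABA synthesis, vesicle loading, and uptake, 6 had negative log2 fold changes in *Tbr1*+/K228E and 3 in *Tbr1*K228E/K228E embryos, with medians of -0.04 and -0.03. *Slc6a11*, a transporter of glia, had -0.32 ± 0.21 (SE) in heterozygous embryos, and *Abat*, which breaks GABA down, had -0.11 ± 0.08 in homozygous embryos.

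Of 13 listed *Dlx* genes and other ganglionic eminence factors, 11 were tested. In *Tbr1*+/K228E embryos 10 of them had positive values with a median of 0.26, and in *Tbr1*K228E/K228E embryos 10 were positive with a median of 0.12. *Sp9*, a zinc finger factor downstream of the *Dlx* genes, had a log2 fold change of 0.28 ± 0.20 (SE) in heterozygous embryos.

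Of 10 MGE lineage genes, 8 were positive in heterozygous and 7 in homozygous embryos, with medians of 0.12 and 0.14. *Zeb2*, the most abundant of them and also expressed in glutamatergic neurons, had 0.16 ± 0.19 and -0.09 ± 0.19 (SE). *Satb1*, which promotes maturation of somatostatin interneurons, had 0.19 ± 0.09 in homozygous embryos, with an unadjusted p of 0.0476 and an adjusted p of 1.00 in limma. *Lhx8*, a factor of MGE-derived cholinergic neurons, had 0.71 ± 0.44 in heterozygous embryos, within a 7.10-fold range over the WT embryos.

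Of 8 CGE lineage genes, 2 were positive in heterozygous and 5 in homozygous embryos, with medians of -0.06 and 0.03. *Nr2f1*, the most abundant, had -0.05 ± 0.09 and -0.10 ± 0.09 (SE). *Nr2f2*, a nuclear receptor enriched in the CGE, had -0.12 ± 0.12 in heterozygous embryos, and *Calb2*, which encodes calretinin, had -0.26 ± 0.13 in homozygous embryos. The 10 receptors and cues of interneuron migration had medians of 0.00 and -0.04. Among these genes, *Robo2* had -0.01 ± 0.04 and -0.04 ± 0.04, *Nrg3* had -0.11 ± 0.09 in heterozygous embryos, and *Nrp1* had 0.12 ± 0.09 in homozygous embryos.

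The 12 peptides and calcium-binding proteins of interneuron subtypes, *Sst* and *Npy* among them, had medians of -0.01 and 0.01. *Sst* was the most abundant of the 12. Markers that appear later in development were near the detection limit. *Pvalb*, which encodes parvalbumin, ranged from 1.94 to 28.2 normalized counts over the 15 embryos, and *Vip* ranged from 0.934 to 15.7. These genes were chosen for mention after their values had been seen, and at such counts a difference between genotypes was not detectable.

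**Figure D5:**
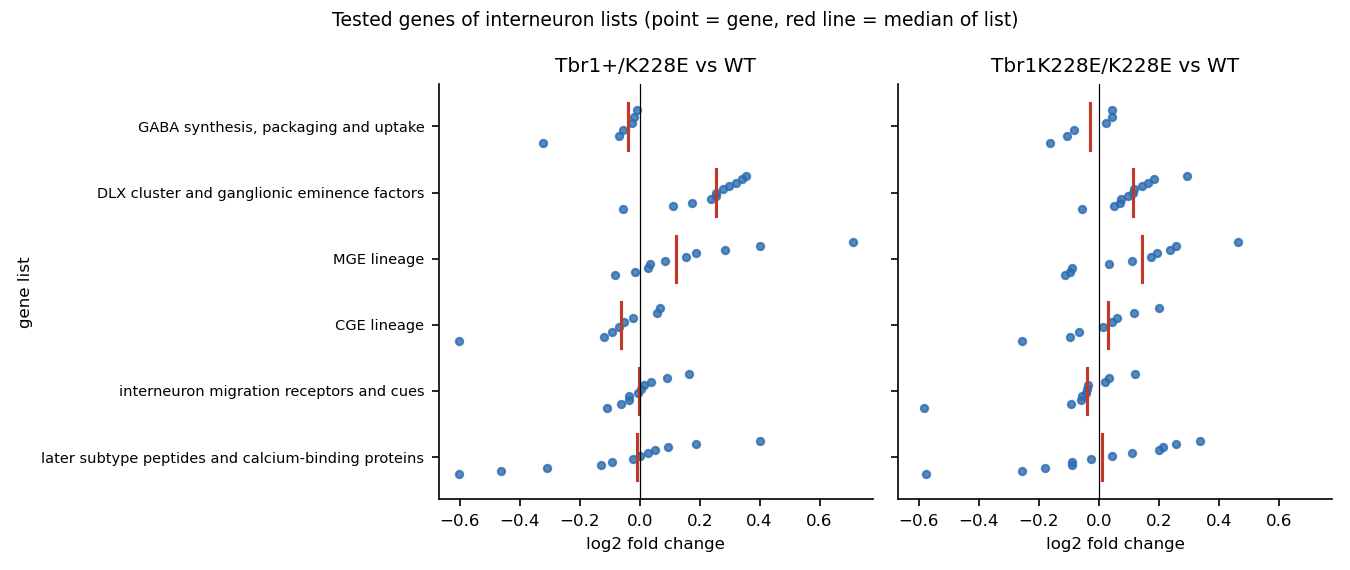
Log2 fold change (x axis) of every tested gene in 6 lists of interneuron genes (y axis) for *Tbr1*+/K228E (left) and *Tbr1*K228E/K228E (right) against WT embryos, with 1 point per gene and a red line at the median of the list. Medians lie between -0.06 and 0.26, and no point passed the adjusted threshold.

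Among lists for other cells, no gene passed the adjusted threshold either. *Fezf2*, a fate determinant of subcortical projection neurons, had 0.27 ± 0.24 in heterozygous and 0.66 ± 0.24 (SE) in homozygous embryos, the latter with an unadjusted p of 0.0137 and an adjusted p of 1.00 in limma. *Hcrt*, of the hypothalamic list, had 1.34 ± 0.53 in heterozygous embryos, with an unadjusted p of 0.0241 and an adjusted p of 0.999 in limma. Its mean was only 9.06 normalized counts in those embryos and 4.39 in WT embryos. In that list, 5 of 10 genes were positive in heterozygous embryos. *Six3*, a factor of striatal neurons, had 0.18 ± 0.10 in heterozygous and 0.19 ± 0.10 in homozygous embryos. *Gata3*, which specifies GABAergic neurons of the posterior brain, had -1.18 ± 0.96 in heterozygous embryos, and *Lbx1*, a factor of dorsal hindbrain and spinal neurons, had -1.58 ± 1.19 in homozygous embryos. The medians of that posterior GABAergic list were -0.57 and -0.21, with 0 and 2 of 8 tested genes positive. The medians of the Hox list were -2.05 and -1.73, with 0 of 12 positive in both genotypes.

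The genes with the most similar course across the 15 embryos were ranked by Pearson's r with the mean standardized deviation of the 8 genes. Among the first 5 were *Rxrg*, a retinoid receptor, with r = 0.90, *Dlx6* with 0.89, *Nme2* with 0.88, and *Brs3* with 0.87. *Brs3* had a mean of only 17.4 normalized counts. *Dlx6* is the neighbor of *Dlx5* and had counts of 360.0, 281, 474, 241, and 168 in WT embryos, 233, 589, 389, 308, and 331 in *Tbr1*+/K228E embryos, and 355, 168, 542, 272, and 281 in *Tbr1*K228E/K228E embryos. Its highest and lowest mutant embryos were those of *Dlx5*. Against the mean of the 8 genes, *Dlx5* itself had r = 0.87, *Gad1* had 0.14, and *Sst* had -0.26.

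Sex was balanced across genotypes, and expression of 4 listed Y-linked genes, led by *Kdm5d*, matched the labeled sex in all 15 embryos. For a genotype effect against WT that differed between males and females, 0 of all tested genes passed the adjusted threshold in limma in either mutant genotype. That none of the 8 genes passed is therefore not particular to them. Of the 8 genes, 1 had an unadjusted p under 0.05. That gene was *Dlx2* in *Tbr1*K228E/K228E against WT embryos, with a difference of 1.17 on the log2 scale (male minus female), an unadjusted p of 0.0449, and an adjusted p of 0.752 in limma. That contrast rests on 2 males per genotype, and the lowest WT embryos for *Dlx2*, replicates 4 and 5, are the males.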

How the data were processed

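RNA libraries of 15 embryonic brains were made with an unstranded TruSeq RNA v2 kit. The deposited table holds normalized read counts, a signal that the authors made by estimating transcript abundance with Salmon 0.11.2 on GRCm38, summing to genes with tximport, and dividing by DESeq2 1.22.2 size factors in R 3.5.3 (versions from the submitters' processing notes). Values are not whole reads. Of the low values per embryo, 16.2 to 39.7% lay within 0.02 of a whole multiple of a step, chosen to make that share highest. Reads were therefore not recovered and no count test was run. The steps gave a rough estimate of 26283000.0 to 37990000.0 reads per embryo, with a median of 29800000.0, although most low values did not match them.

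Genes with a mean of at least 5 (16507 of 19475) were tested on log2(value + 1) with limma 3.58.1 (trend and 3 genotypes in 1 fit) in R 4.3.3, with Benjamini-Hochberg adjustment over all tested genes, a threshold of 0.05, and 95% intervals. Fold changes are on this scale, which understates changes of low genes. Exact two-sided permutation tests of 5 against 5 embryos were also run in R. Summed levels and correlations between genes were computed in Python 3.11.15. Of the identifiers, 19469 matched GENCODE M21. The model was tested on simulated data. The genes and lists were chosen with earlier results of these data known. Named genes are all 9 listed genes and, per other list, genes past the threshold or otherwise the most abundant gene and that with the smallest p against WT in each mutant genotype, and the 5 genes most similar across embryos. Some genes that this rule names are not reported here. Other genes named, *Tbr1*, *Vip*, and *Pvalb* among them, were chosen after their values were seen. Alternatives covered the pseudocount, filter, scaling, covariates, embryo weights, null distribution, replicate block, gene length, correlation measure, and each embryo left out. The embryos of a genotype correlated at 0.971 to 0.989 and 0 columns were identical. The labels do not tell litters apart, so p-values measure the spread between these embryos.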

Additional observations from a re-analysis of the deposited data

Results flagged for a closer look

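Of 24 groups of 5 embryos examined (8 genes in 3 genotypes), 1 held an embryo far from the others. *Gad1* in WT replicate 4 had 5846.6 normalized read counts, and its gap to the next WT embryo was 0.725 of the range of the group. Chance alone places about 1 in 20 such groups past this limit.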

How the results depend on the processing

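None of the 8 genes passed the adjusted threshold under any alternative in any comparison. Of 288 fold changes under alternatives that kept each embryo or removed those with high Hox sums, 282 kept their direction, and of 240 with 1 embryo left out, 220 did. For *Npy* in *Tbr1*K228E/K228E against WT embryos, the log2 fold change ranged from 0.17 to 0.46, with a smallest adjusted p of 0.952 in limma. The *Tbr1*+/K228E value of *Gad1* against WT was 0.0077 with the Hox level as a covariate, which also gave 0.0226 for *Dlx1* and 0.083 for *Lhx6*. Without the embryos with a Hox sum over 100, an alternative added after the data had been seen, the heterozygous values were 0.0139 for *Gad1* and 0.0137 for *Gad2*, and the differences between mutant genotypes were 0.0218 for *Dlx1*, 0.0384 for *Lhx6*, and -0.0057 for *Sst*. The heterozygous values of *Dlx2* and *Dlx5* there were 0.3194 and 0.3945. That subset gave 2 called genes in homozygous against WT embryos and 3 between mutant genotypes, from fewer embryos.

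The count of all called genes was 21 in homozygous against WT embryos, 42 with an empirical null, and 12 with only the 2 genotypes fitted. Between mutant genotypes it was 13, and 21 with embryo weights. The causes were not tested. By Spearman correlation, 3 of the 5 most similar genes were kept.

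With 1 embryo left out, the counts were 0 to 0 in heterozygous against WT embryos, 12 to 21 in homozygous against WT embryos, and 6 to 8 between mutant genotypes. The heterozygous fold changes ran from -0.0471 to 0.0198 for *Gad1*, -0.0491 to 0.0261 for *Gad2*, and -0.0533 to 0.153 for *Sst*. Those of the transcription factors stayed positive but moved by over 1.5 times, from 0.0695 to 0.397 for *Dlx1*, 0.116 to 0.488 for *Dlx2*, 0.189 to 0.507 for *Dlx5*, and 0.151 to 0.420 for *Lhx6*. The highest values came without WT replicate 3, and the lowest without WT replicate 4 (*Dlx1*, *Dlx2*) or heterozygous replicate 2 (*Dlx5*, *Lhx6*). The homozygous ones ran from -0.053 to 0.325 for *Dlx1*, -0.0579 to 0.388 for *Dlx2*, and -0.053 to 0.342 for *Dlx5*. Those of 4 further genes stayed positive but also moved by over 1.5 times. They ran from 0.0442 to 0.360 for *Lhx6*, 0.0317 to 0.2375 for *Sst*, 0.0065 to 0.0887 for *Gad1*, and 0.0026 to 0.0778 for *Gad2*. Between mutant genotypes the values ran from -0.275 to 0.0875 for *Dlx1*, -0.309 to 0.0683 for *Dlx2*, -0.241 to 0.0752 for *Lhx6*, and -0.0132 to 0.144 for *Npy*. Those of *Dlx5* ran from -0.409 to -0.0148 and those of *Sst* from 0.016 to 0.131, with no change of direction.

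A fit with a replicate block called 16 genes in homozygous against WT embryos and 2 between mutant genotypes, and no call on the 8 genes changed. Deviations of same-numbered embryos correlated at -0.21 to 0.22 (heterozygous and WT), 0.02 to 0.51 (homozygous and WT), and -0.23 to 0.35 (the mutant genotypes), and not every embryo correlated best with its own number. Replicates 1 to 3 are female and 4 to 5 male in every genotype, so same-numbered embryos also share their sex. Since the correlation did not exceed 0.1 for every pair and no label ties the numbers to a litter or day, the fit without the block was kept.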
